A study of Mus musculus with 51 samples.

Results

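The Hox genes are the homeobox transcription factor genes of the Hoxa, Hoxb, Hoxc and Hoxd clusters. Here they were taken as every gene on the array whose symbol is Hox, a letter a to d and a number, which gave 38 of the 16593 genes measured. The Hoxa cluster had 10 of them, the Hoxb cluster 10, the Hoxc cluster 9 and the Hoxd cluster 9. By the number in the symbol, 7 were anterior (1 to 3), 15 central (4 to 8) and 16 posterior (9 to 13). Where a gene had several probes, the brightest on average over the 51 arrays was read. No expression difference entered the choice of genes.

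The 51 arrays came from cells of an rtTA mouse strain, and the fibroblasts were taken from E15.5 embryos and reprogrammed with c-Myc, Oct4, Sox2 and Klf4 expressed under doxycycline. Day 16 of primary reprogramming gave 6 clonal lines called F-class (clones 1, 2, 6, 7, 13 and 27) and 22 called C-class, each on 1 array and all kept in doxycycline. The labels leave out what placed a clone in its class, and had expression been used, the class comparison would not be an independent one. Clone 1 was measured again at day 30, and a secondary course from fibroblasts already carrying the factors gave 1 array each at days 2, 5, 8, 11, 16 and 18. The induced pluripotent stem cells (iPSC) were a secondary line (iPSC 1) and a primary line (iPSC 2) that no longer needed doxycycline, and the embryonic stem cells (ESC) were 2 arrays. The fibroblast group was 1 array of primary parental fibroblasts and the day 0 array of the secondary course. F-class cells were sampled in duplicate at 0, 24 and 48 h of an unnamed histone deacetylase inhibitor (HDACi), and 2 Tet-Myc lines 48 h after doxycycline was removed and with doxycycline. Separate cultures are not stated for the duplicate arrays, so a p-value covers the spread between arrays, possibly a technical one in the ESC and HDACi groups.

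Hox proteins bind DNA through a homeodomain, mostly together with Pbx, Meis and Pknox cofactors, and give the cells of the body axis and limbs their positional identity. The order of the genes along a cluster follows the order in which they are used along the body, with low numbers towards the head and high numbers towards the tail and the limb tips. Fibroblasts keep the Hox pattern of the site they came from, whereas in embryonic stem cells the clusters are held silent by Polycomb complexes, and histone acetylation and trithorax complexes mark active clusters.

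Sequences just upstream of the RefSeq start are shown for 5 genes that carry the main findings. Hoxa5, Hoxa7, Hoxa9 and Hoxa10 were all lower after 48 h of HDACi, and Hoxd13 had the smallest adjusted p between the clone classes. RefSeq promoters of assembly GRCm38.p6 were found for 22 of the 38 genes (24 entries, since Hoxa10 and Hoxd11 had more than 1 start). Each window is the 250 bases before the start, written 5′ to 3′ on the gene's strand. Capitals mark matches on either strand to CACGTG (an E-box, the sequence Myc binds), GGGCGG (a GC box, which reads CCGCCC on the opposite strand), TATAAA (the core promoter word, opposite strand TTTATA) and TTTATG (opposite strand CATAAA), the last an AT-rich word of the kind posterior Hox and Cdx proteins bind. The windows are chr6:52204588-52204837 (minus strand) for Hoxa5, chr6:52218574-52218823 (minus) for Hoxa7, chr6:52227371-52227620 (minus) for Hoxa9, chr6:52240855-52241104 (minus) for Hoxa10 and chr2:74667975-74668224 (plus) for Hoxd13.
Hoxa5: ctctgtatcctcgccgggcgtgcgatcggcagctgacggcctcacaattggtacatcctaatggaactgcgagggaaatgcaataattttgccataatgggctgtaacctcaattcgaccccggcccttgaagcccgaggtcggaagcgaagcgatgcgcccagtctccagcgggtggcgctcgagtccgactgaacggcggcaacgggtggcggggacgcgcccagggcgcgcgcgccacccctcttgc
Hoxa7: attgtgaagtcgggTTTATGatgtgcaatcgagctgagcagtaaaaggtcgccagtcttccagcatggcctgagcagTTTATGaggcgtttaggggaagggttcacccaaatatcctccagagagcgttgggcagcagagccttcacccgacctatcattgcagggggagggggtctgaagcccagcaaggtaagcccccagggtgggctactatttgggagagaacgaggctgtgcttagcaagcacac
Hoxa9: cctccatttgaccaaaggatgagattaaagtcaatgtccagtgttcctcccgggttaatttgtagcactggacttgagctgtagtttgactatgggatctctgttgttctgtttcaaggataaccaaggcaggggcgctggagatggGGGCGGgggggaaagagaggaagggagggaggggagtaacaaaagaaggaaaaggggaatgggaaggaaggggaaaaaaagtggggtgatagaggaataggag
Hoxa10: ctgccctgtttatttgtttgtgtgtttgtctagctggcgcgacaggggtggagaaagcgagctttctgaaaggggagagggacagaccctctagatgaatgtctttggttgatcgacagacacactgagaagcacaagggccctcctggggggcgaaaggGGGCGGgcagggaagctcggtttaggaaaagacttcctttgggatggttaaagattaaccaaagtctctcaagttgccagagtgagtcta
Hoxd13: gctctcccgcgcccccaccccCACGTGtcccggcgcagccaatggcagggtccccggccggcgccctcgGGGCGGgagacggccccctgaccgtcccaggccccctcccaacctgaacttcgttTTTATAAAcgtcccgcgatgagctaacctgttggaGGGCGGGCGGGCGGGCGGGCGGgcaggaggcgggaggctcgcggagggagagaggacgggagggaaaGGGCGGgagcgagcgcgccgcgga

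Hoxa10 has a second listed start, and the window of the first entry is shown. The one not shown held 20 CpG, 1 TATAAA and no GGGCGG. The Hoxd13 window held 7 GGGCGG matches, some overlapping, 1 CACGTG and a TATAAA read on both strands, and 31 CpG dinucleotides. The Hoxa7 window held 2 TTTATG and 7 CpG, the Hoxa9 window 1 GGGCGG and 3 CpG, the Hoxa10 window 1 GGGCGG and 7 CpG, and the Hoxa5 window none of the words searched and 28 CpG. Over all entries, 4 of 24 Hox windows held CACGTG (Hoxd1, Hoxd10, Hoxd11 and Hoxd13), against 6.0% of 32851 promoters. The corresponding counts were 10 of 24 against 32.7% for GGGCGG, 4 of 24 against 12.4% for TATAAA and 5 of 24 against 10.8% for TTTATG. Hox windows held a median of 12.5 CpG (range 2 to 35), and all promoters a median of 6. No searched word was common to the 4 Hoxa windows.

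Levels are normalized log2 intensity, on which a difference of 1 is 2-fold, and a probe counts as detected at a detection p under 0.05. Per array, 46.6% to 53.4% of all probes were detected. A gene is called where limma's p, adjusted over all genes tested, was under 0.05. Of the Hox genes, 28 were detected on at least 2 arrays of the reference groups and 21 on at least 2 arrays of the HDACi and Tet-Myc groups, and these were tested. Hoxa3, Hoxa6, Hoxb8, Hoxb13, Hoxc5 and Hoxd1 were detected on no array. The 13 fibroblast markers averaged 6.36 to 7.05 in F-class clones, 6.35 to 7.65 in C-class clones, 8.62 on both iPSC arrays, 9.33 and 7.35 on the ESC arrays, and 11.39 and 11.93 in fibroblasts, so the iPSC arrays and ESC 1 carried more fibroblast marker signal than any clone. The 9 macrophage markers averaged 9.06 on ESC 1 and 5.06 on ESC 2, and 5.36 in the primary fibroblasts and 7.97 in the secondary ones.

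The number of Hox genes detected on an array was 16 to 19 in F-class clones (median 18), 12 to 19 in C-class clones (median 16.5), 20 and 15 in iPSC, 15 and 14 in ESC, and 24 and 23 in fibroblasts. Fibroblasts expressed all 4 clusters, with 5 or more of the Hoxa, Hoxb and Hoxd genes on each array. Levels of different genes come from different probes and are not ranked against each other. In these bulk samples fewer cells of a type and less RNA per cell cannot be told apart.

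**Figure D1:**
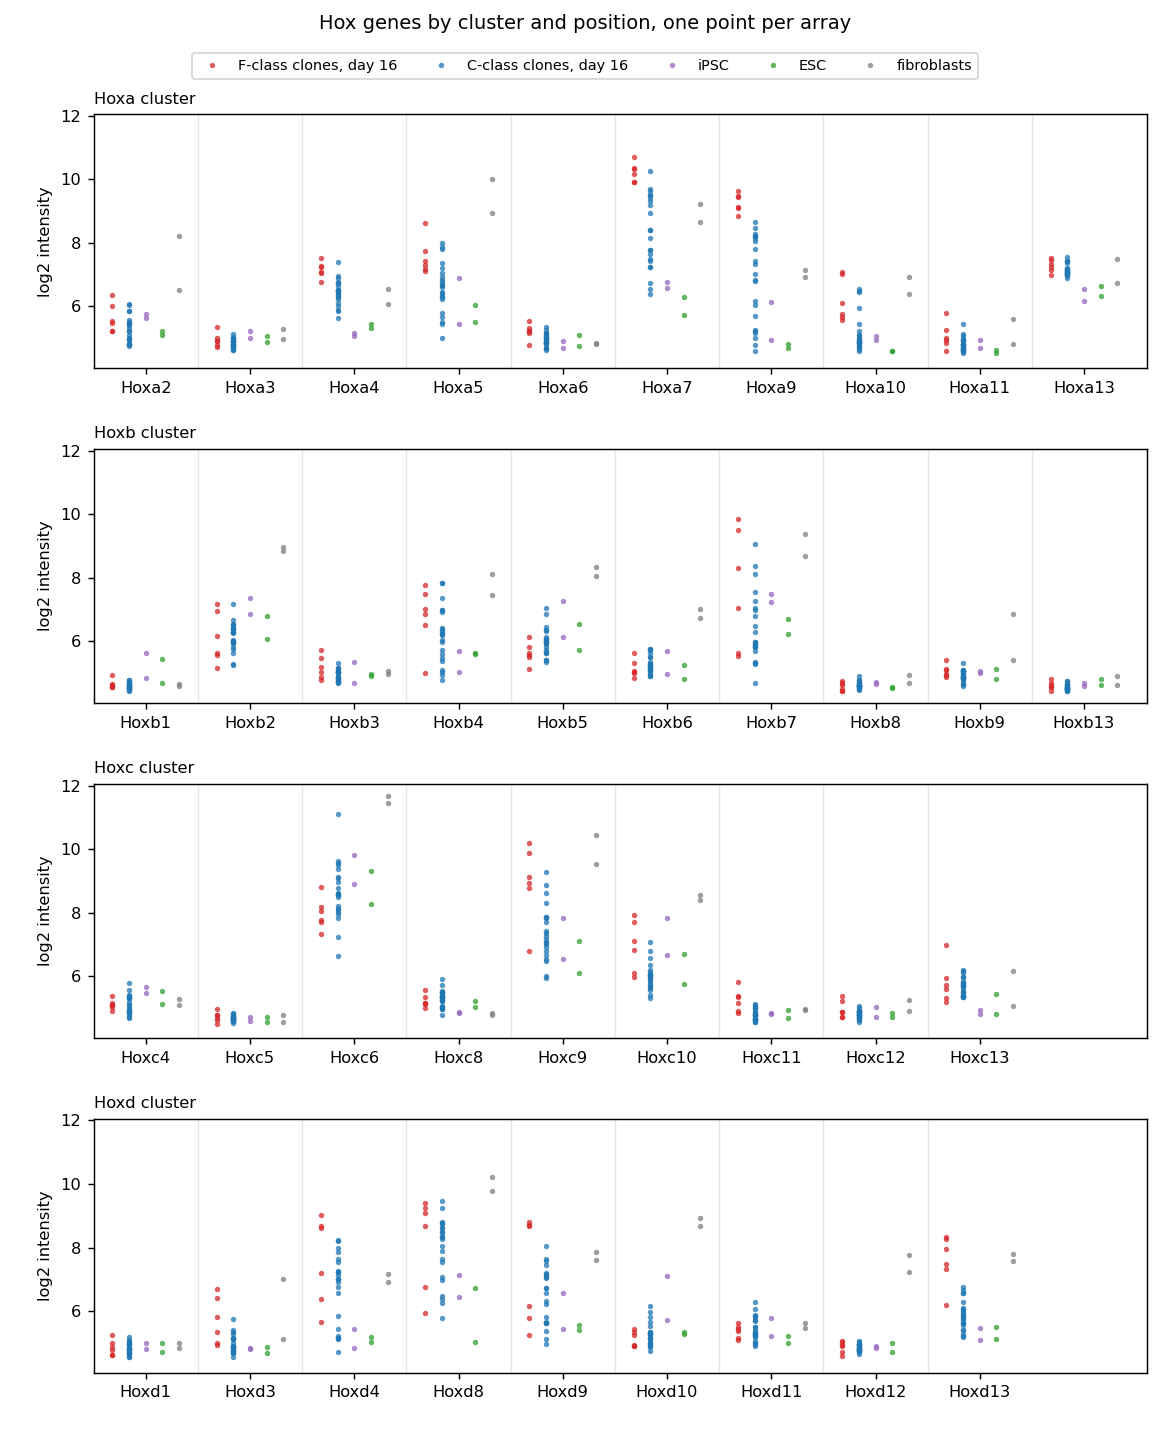
Normalized log2 intensity (y axis) of the 38 Hox genes in 4 panels by cluster, genes in the order of their number (x axis), with 1 point per array for F-class clones (6), C-class clones (22), iPSC (2), ESC (2) and fibroblasts (2). Hoxa9 is higher in every F-class clone than on any other array shown, Hoxd12 is above 7 in fibroblasts alone, and Hoxd10 is above 7 in fibroblasts and iPSC 1 (7.09).

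The comparison of F-class with C-class clones asks how the Hox genes differ between both kinds of reprogramming clone at the same day. In F-class clones 9 of the 28 Hox genes tested were higher and 0 were lower, where 24.7% of all genes tested were called (14.1% higher and 10.6% lower). The median log2 difference was 0.32 over the Hox genes tested and 0.03 over all genes. By cluster, 5 of 8 tested Hoxa genes were higher, 2 of 6 Hoxc, 2 of 8 Hoxd and 0 of 6 Hoxb genes. By position, 1 of 4 anterior, 3 of 12 central and 5 of 12 posterior genes were higher.

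Hoxa9, a posterior gene that drives self-renewal of blood progenitors, stood at 9.46, 9.44, 9.12, 9.09, 8.83 and 9.63 in F-class clones 1, 2, 6, 7, 13 and 27, and at 4.58 to 8.67 (median 6.93) in the C-class clones. Every F-class clone was above every C-class clone, and Hoxa9 was detected in all 6 F-class and in 16 of 22 C-class clones. It averaged 9.26 ± 0.30 in F-class clones and 6.78 ± 1.37 in C-class clones (SD, n = 6 and 22), a log2 difference of 2.48 (SE 0.52), or 5.59-fold (limma adjusted p = 0.00069). It was the only Hox gene tested whose classes did not overlap. How many of all genes tested had classes without overlap was not counted.

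Its neighbour Hoxa7, a central gene of the trunk, stood at 10.31, 10.17, 10.35, 9.91, 9.90 and 10.71 in the same F-class clones and at 6.39 to 10.26 (median 8.28) in C-class clones. A single C-class clone reached the F-class range. The log2 difference was 1.92 (SE 0.44), or 3.78-fold (limma adjusted p = 0.0016). Hoxa5, a central gene needed for lung and axial skeleton, was at 7.17, 7.43, 7.74, 7.12, 7.29 and 8.64 in F-class clones and at 4.99 to 7.98 (median 6.63) in C-class clones. Its classes overlapped, with 5 C-class clones at or above the lowest F-class clone, and the log2 difference was 0.98 (SE 0.34, limma adjusted p = 0.031). Without clone 27, the highest, the Hoxa5 difference was 0.76 and no longer called (limma adjusted p = 0.12), and the call was also lost without clone 2 (p = 0.053) or clone 6 (p = 0.062).

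Hoxa4, which patterns the neck vertebrae, was at 7.51, 7.25, 7.05, 7.26, 6.76 and 7.09 in F-class clones and at 5.65 to 7.39 (median 6.47) in C-class clones. The spread within each class was small, and 4 C-class clones reached the F-class range. The log2 difference was 0.71 (SE 0.16, limma adjusted p = 0.0016). Hoxa10, a posterior gene of the lumbar spine and uterus, was at 7.09, 6.10, 5.67, 5.57, 5.76 and 7.03 in F-class clones and at 4.60 to 6.55 (median 4.92) in C-class clones. It was detected in 5 of 6 F-class and 4 of 22 C-class clones, clones 1 and 27 being the highest. Its log2 difference was 1.02 (SE 0.26, limma adjusted p = 0.0045). At the end of the cluster Hoxa13, a gene of the limb tips, differed little, at 7.28 ± 0.19 in F-class clones and 7.16 ± 0.18 in C-class clones. The chosen Hoxa13 probe was detected on all 51 arrays, whereas its other probes were detected on 4 and 0, so its level is uncertain.

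Hoxd13, which acts in digits and the urogenital tract, stood at 8.33, 7.33, 6.19, 8.26, 7.49 and 7.95 in F-class clones and at 5.18 to 6.77 (median 5.81) in C-class clones. Clone 6 lay within the C-class range and the other 5 F-class clones above it. The log2 difference was 1.72 (SE 0.23), or 3.30-fold, with the smallest adjusted p of the family (limma, 2.5e-06). Hoxd3, an anterior gene of the atlas and axis, was at 6.40, 4.99, 4.93, 5.81, 5.34 and 6.68 in F-class clones and at 4.56 to 5.76 (median 4.89) in C-class clones. It was detected in 3 of 6 F-class and 1 of 22 C-class clones. Its log2 difference of 0.72 (SE 0.21, limma adjusted p = 0.011) was 0.58 without clone 1 (p = 0.06) and 0.52 without clone 27 (p = 0.064).

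The Hoxc genes called were the neighbours Hoxc9 and Hoxc10, which pattern the thoracic and lumbar levels and their motor neurons. Hoxc9 was at 9.13, 8.78, 8.92, 9.89, 6.79 and 10.18 in F-class clones and at 5.94 to 9.27 (median 7.22) in C-class clones. Clone 13 was the low one, and 17 of 22 C-class clones lay at or above it. The log2 difference was 1.58 (SE 0.41, limma adjusted p = 0.0045). Hoxc10 was at 7.11, 5.96, 6.81, 7.93, 6.09 and 7.69 in F-class clones and at 5.32 to 7.09 (median 5.97) in C-class clones. Clones 7, 27 and 1 were above every C-class clone and the others within the C-class range, with a log2 difference of 0.93 (SE 0.24, limma adjusted p = 0.0041). No Hoxb gene was called by limma, and 1 of the 6 had an unadjusted p under 0.05. Hoxb7 ranged from 5.55 in clone 27 and 5.64 in clone 13 up to 9.50 in clone 6 and 9.85 in clone 7, so the F-class clones were not alike in this cluster.

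**Figure D2:**
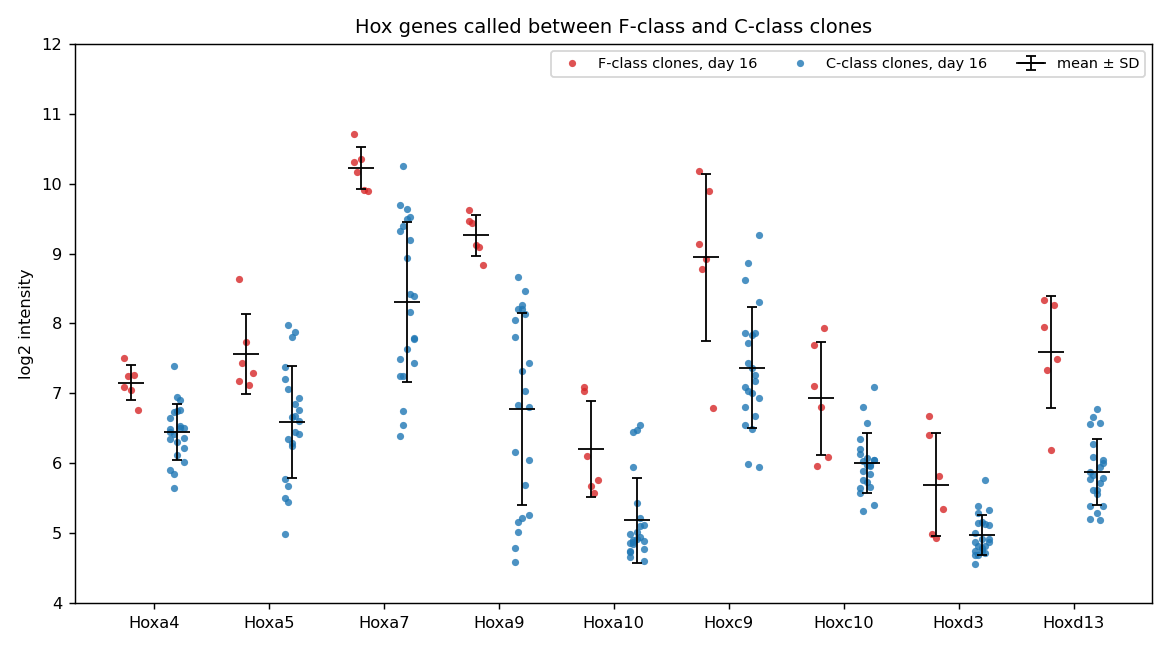
Normalized log2 intensity (y axis) of the 9 Hox genes called between the classes (x axis), with F-class clones (6 points) left of C-class clones (22 points) and bars giving mean ± SD. Hoxa9 is at 8.83 or more in every F-class clone and at 8.67 or less in every C-class clone, and the other 8 genes overlap.

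Marker levels moved with the same classes. The 8 epithelial markers averaged 6.40 to 9.75 per F-class clone and 9.07 to 11.79 per C-class clone, with 0 of 8 higher and 8 of 8 lower in F-class clones. Of 12 pluripotency markers 1 was higher and 5 were lower in F-class clones, and of 13 fibroblast markers 0 were higher and 3 lower. Their part in the Hox differences was not tested. The fibroblast marker Col1a1, at 14.85 and 15.53 in fibroblasts, was at 7.77 to 9.30 in F-class clones and 7.33 to 9.91 in C-class clones, so neither class approached the fibroblast level.

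The C-class clones differed widely among themselves. Hoxc6 spanned 22.0-fold over them, with clone 20 highest and clone 25 lowest, and Hoxb7 spanned 20.8-fold, with clone 16 highest and clone 25 lowest. Hoxa9 spanned 17.0-fold and Hoxa7 14.6-fold, and for both clone 17 was highest and clone 21 lowest. Hoxd8 spanned 12.8-fold, with clone 24 highest and clone 21 lowest, and Hoxd4 11.6-fold, with clone 12 highest and clone 4 lowest. Clone 20 was also highest for Hoxc9, Hoxb5 and Hoxd9, so 1 clone led in genes of 3 clusters, while other genes of the same clusters peaked in other clones.

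How far genes varied together was described by Pearson's r over the 22 C-class clones, for the 17 Hox genes detected in at least 11 of them (136 pairs, permutation p from 100000 draws, adjusted over the pairs). This measure was chosen after the levels had been seen. The median r was 0.52 over the 28 pairs from 1 cluster, of which 13 had an adjusted p under 0.05. It was 0.08 over the 108 pairs from different clusters, of which 6 did, each a Hoxb gene with a Hoxc gene. The median r was 0.72 over the 10 Hoxa pairs, 0.58 for Hoxd, 0.52 for Hoxb and 0.38 for Hoxc, and the clusters were not tested against each other. The 4 Hoxa pairs with Hoxa13 had an r of -0.23 to 0.13 and did not share in this.

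Hoxa7 and Hoxa9 had an r of 0.90 (Spearman's rho 0.87), and 0.88 without the 2 clones farthest from the median. Hoxa5 and Hoxa7 had 0.88 (rho 0.88), and 0.83 without 2 clones. Within the Hoxd cluster, Hoxd4 and Hoxd8 had 0.89 (rho 0.82), and 0.91 without 2 clones. For each pair the adjusted p of r was 0.00019 and that of rho at most 0.00039. Across clusters, Hoxb4, a gene that expands blood stem cells, and Hoxc6 had 0.82 (rho 0.82), and 0.76 without 2 clones, whereas Hoxa9 with Hoxc6 had -0.47, which with Hoxa9 and Hoxb7 was the lowest r of all pairs (for Hoxc6, adjusted permutation p 0.12). Hoxb5 with Hoxc6 had 0.64 (rho 0.53), which dropped to 0.37 without 2 clones and so rests on those clones.

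**Figure D3:**
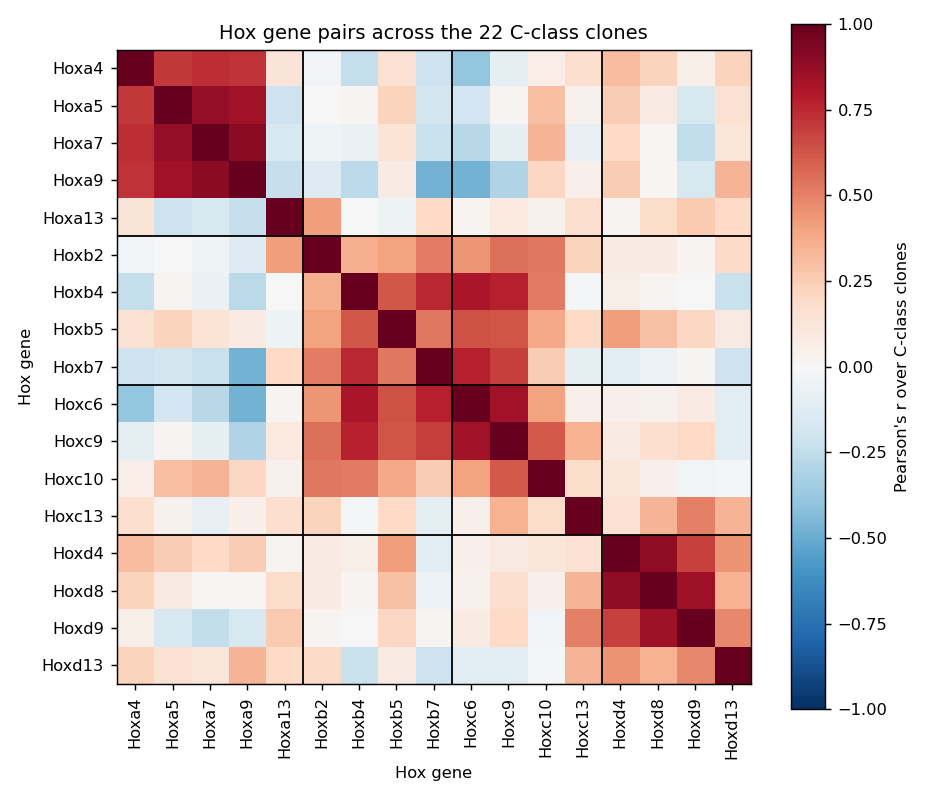
Pearson's r (colour) between each pair of 17 Hox genes over the 22 C-class clones, with genes in cluster order on both axes and black lines between clusters. The Hoxa genes other than Hoxa13 form a block (Hoxa7 with Hoxa9 0.90), the Hoxd genes form another (Hoxd4 with Hoxd8 0.89), and Hoxb and Hoxc genes correlate across their clusters (Hoxb4 with Hoxc6 0.82).

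Most Hoxa genes also followed the epithelial markers within the C-class alone. Over the 22 clones the mean epithelial marker level had an r of -0.73 with Hoxa7 (rho -0.72, -0.61 without 2 clones, permutation p adjusted over 51 relations 0.0059), -0.71 with Hoxa5 (rho -0.63, -0.57 without 2, adjusted p 0.0059), -0.65 with Hoxa4 (rho -0.62, -0.48 without 2, adjusted p 0.014) and -0.62 with Hoxa9 (rho -0.67, -0.49 without 2, adjusted p 0.024). For these 4 genes the adjusted p of rho was 0.016 to 0.038. Clones with less epithelial signal had more of these 4 genes, the direction also seen between the classes, but Hoxa13, the fifth Hoxa gene correlated, had an r of 0.04. Hoxd4 had -0.59 (rho -0.58, adjusted p 0.035 for r and 0.053 for rho), and Hoxc13 had -0.67 with the pluripotency markers (rho -0.54, adjusted p 0.0094 for r and 0.085 for rho). No Hox gene had an adjusted p under 0.05 with the fibroblast markers (Hoxa9 0.25, rho 0.19).

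Set against fibroblasts, part of the Hox genes were lower in both classes. For F-class clones that part was close to the share of all genes called lower. The share called in either direction was below that of all genes there. In F-class clones 2 of 28 genes were higher and 9 lower, where 58.7% of all genes were called (31.5% higher and 27.2% lower). In C-class clones 1 was higher and 16 were lower, where 60.0% of all genes were called (31.6% higher and 28.5% lower). Both comparisons use the same fibroblast arrays. Of the Hox calls 9 of 11 in F-class clones and 16 of 17 in C-class clones were lower ones, whereas the calls over all genes were split about evenly between directions. The median log2 difference over the Hox genes tested was -0.48 in F-class clones and -1.54 in C-class clones, beside 0.10 and 0.09 over all genes.

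The Hoxd genes 10 and 12, which pattern the limb, were lower in both classes. Hoxd10 was at 4.89 to 5.43 in F-class clones (median 5.08), undetected in all 6, and at 4.73 to 6.17 (median 5.22) in C-class clones, against 8.68 and 8.93 in fibroblasts. The groups did not overlap. The log2 differences were -3.68 in F-class clones, which is at least 9.14-fold lower, and -3.54 in C-class clones, of which 5 of 22 detected it (limma adjusted p = 4.3e-12 and 8.1e-13). The bound takes the dimmer group at its own value or, where higher, at the lowest signal of a detected probe on each array. Hoxd12 levels in F-class clones were 4.58 to 5.05 and in C-class clones 4.64 to 5.07 (median 4.84), against 7.24 and 7.77 in fibroblasts, lower by at least 3.71-fold in F-class clones and in C-class clones by at least 3.95-fold. Hoxd12 was detected in fibroblasts alone and entered the fit through that group, so it had to differ and no p is given for it. It is still included among the genes counted as lower in both classes. Hoxc6 was at 7.33 to 8.81 in F-class clones and 6.63 to 11.09 (median 8.59) in C-class clones, below the 11.45 and 11.68 of fibroblasts, which is 12.0-fold lower in F-class clones and 7.58-fold lower in C-class clones (limma adjusted p = 1.9e-05 and 7.8e-05).

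Hoxb2, a hindbrain gene, was at 5.17 to 7.16 in F-class clones and 5.24 to 7.17 (median 6.15) in C-class clones, against 8.83 and 8.98 in fibroblasts, with log2 differences of -2.80 and -2.77 (limma adjusted p = 5.9e-07 and 1.1e-07). Hoxb5 was at 5.13 to 6.13 in F-class clones and 5.36 to 7.06 (median 5.98) in C-class clones, against 8.05 and 8.34 in fibroblasts (log2 differences -2.57 and -2.20). Hoxa5 was lower in both, by a log2 difference of -1.90 in F-class (limma adjusted p = 0.0069) and -2.88 in C-class clones (p = 2.7e-05), against fibroblast levels of 8.94 and 10.00. The genes lower in C-class clones further included Hoxc9 (-2.62), Hoxb7 (-2.59), Hoxc10 (-2.47), Hoxd8 (-2.07) and Hoxd13 (-1.83), all by limma adjusted p under 0.05, and in F-class clones Hoxb6 and Hoxa2 (-1.72 each) and Hoxc10 (-1.55). With the number format of the deposited columns as a term, the F-class Hoxa5 call was lost (-1.5, limma adjusted p = 0.071). So was the C-class Hoxb7 call (-2.3, p = 0.07).

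The genes higher than in fibroblasts were Hoxa9 and Hoxa4 in F-class clones and Hoxc8 in C-class clones. Hoxa9 was at 8.83 to 9.63 in F-class clones against 6.91 and 7.16 in fibroblasts, without overlap, a log2 difference of 2.22 (SE 0.93, limma adjusted p = 0.039). Its call was lost without clone 1, 2 or 27 or without either fibroblast array. It was also lost without the detection filter (limma adjusted p = 0.057) and with the number format as a term (p = 0.077). Hoxa4 was at 6.76 to 7.51 against 6.55 and 6.07 (log2 difference 0.84, limma adjusted p = 0.013). With the same term its call was lost (0.69, limma adjusted p = 0.086). Hoxc8 was detected in 3 of 22 C-class clones and on neither fibroblast array (limma adjusted p = 0.017), the groups overlapped, and no fold can be bounded. The Hoxc8 call was lost without either fibroblast array, and with the number format as a term (limma adjusted p = 0.075). Leaving out the secondary fibroblasts left fewer called Hox genes in both classes, and the shares of all genes called in those fits are not given. The calls of Hoxa2, Hoxa4, Hoxa5 and Hoxa9 in F-class clones were among those lost.

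Against ESC, 11 of 28 Hox genes were higher and 1 lower in F-class clones, where 48.0% of all genes were called (25.4% higher and 22.5% lower). In C-class clones 5 were higher and 1 lower, where 45.1% were called (22.8% higher and 22.3% lower). Hoxa9 was undetected on both ESC arrays (4.68 and 4.82), and F-class clones were at least 15.4-fold and C-class clones at least 2.76-fold above them (limma adjusted p = 0.00019 and 0.048). The C-class call of Hoxa9 was lost without either ESC array (p = 0.19 each) and under 6 other settings (p = 0.063 to 0.11). Hoxa7 exceeded its ESC levels of 5.72 and 6.30 by 18.5-fold in F-class clones and by 4.90-fold in C-class clones (limma adjusted p = 5.1e-05 and 0.0084), the C-class call being lost without ESC 1 (log2 difference 2.00, p = 0.11). Other genes higher in F-class clones than in ESC were Hoxd4, which acts in the hindbrain and neck (log2 difference 2.48, at least 4.84-fold), Hoxc9 (2.34), Hoxd8 (2.31) and Hoxd13 (2.28). In C-class clones they were Hoxd8 (2.04), Hoxa4 (1.06) and Hoxa13 (0.67). Under quantile normalization without background correction the C-class Hoxd8 call was lost (1.16, limma adjusted p = 0.062). It was also lost with the authors' scaled values (1.17, p = 0.061). With the number format of the deposited columns as a term, Hoxd8 was called in neither class (p = 0.12 for F-class and 0.16 for C-class). The F-class Hoxd8 call was also lost with only the 2 groups in the fit (p = 0.084) and without clone 1 (p = 0.051). Without ESC 2, Hoxd8 was at 1.45 in F-class clones (limma adjusted p = 0.33) and at 1.18 in C-class clones (p = 0.44), and Hoxc9 in F-class clones at 1.83 (p = 0.14). Hoxd4 lost its call without either ESC array, and the Hoxa13 difference was 0.15 with its probes averaged. The gene called lower was Hoxb1 in both classes, which was undetected in every clone and on ESC 1 and at 5.44 on ESC 2, so no fold can be bounded.

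Against iPSC, 11 Hox genes were higher and 4 lower in F-class clones, where 53.3% of all genes were called (28.5% higher and 24.7% lower). In C-class clones 4 were higher and 5 lower, where 52.5% were called (26.9% higher and 25.6% lower). Hoxa9 stood at 6.13 and 4.95 and Hoxa7 at 6.77 and 6.57 in the iPSC lines, below every F-class clone, with log2 differences of 3.72 and 3.55 (limma adjusted p = 0.0012 and 0.00031). Hoxd4 (2.46), Hoxd13 (2.31), Hoxa4 (2.03, at least 3.44-fold) and Hoxc9 (1.77) were also higher in F-class clones. Hoxd4 lost its call without either iPSC array, and Hoxc9 was at 1.12 without iPSC 2 (limma adjusted p = 0.37). Hoxd10 was lower in both classes (-1.28, at least 1.73-fold, in F-class clones, which did not detect it, and -1.14 in C-class clones), with levels of 7.09 in iPSC 1 and 5.72 in iPSC 2. Without iPSC 1 the Hoxd10 differences were -0.59 and -0.45 (limma adjusted p = 0.19 and 0.31). Hoxb2 was lower by 1.01 on the log2 scale in F-class clones and by 0.98 in C-class clones, and Hoxb5 was lower in F-class clones (-1.07). Hoxb2 lost its calls without either iPSC array, and Hoxb5 was at -0.51 without iPSC 1. Hoxb1, called lower in both classes, was detected on iPSC 1 but in no clone, and no fold can be bounded. In C-class clones Hoxa4 was higher (1.32, at least 2.11-fold), as were Hoxc13 (at least 1.25-fold, undetected in iPSC), Hoxc8 (detected in 3 of 22 clones and not in iPSC) and Hoxa13 (0.80), and Hoxc10 was lower (-1.25). Hoxa13 was at 0.05 with its probes averaged, Hoxc10 at -0.66 without iPSC 1 (limma adjusted p = 0.33), and Hoxc13 lost its call without either iPSC array. With the number format of the deposited columns as a term, every C-class call against iPSC was lost. In F-class clones that term lost the calls of Hoxa9 (3.91, limma adjusted p = 0.053), Hoxd4 (2.66, p = 0.17) and Hoxc9 (0.8, p = 0.66). Those of Hoxd10 (p = 0.067), Hoxb2 (p = 0.56) and Hoxb5 (p = 0.51) were lost too. Hoxc9 also lost its F-class call without the detection filter (limma adjusted p = 0.056), with only the 2 groups in the fit (p = 0.081) and without clone 1 (p = 0.054). The fibroblast markers were higher on the iPSC arrays than in the clones, with 10 of 13 lower in each class, and their part in these differences was not tested. Fewer Hox genes were called in both classes without either iPSC array, and the shares of all genes called in those fits are not given.

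Both pluripotent groups had fewer Hox transcripts than fibroblasts. In iPSC 1 of 28 genes was higher and 16 lower (45.2% of all genes called, 22.7% higher and 22.5% lower), and in ESC 0 were higher and 18 lower (48.5% called, 24.7% higher and 23.8% lower). Hoxd8 was at 7.13 and 6.45 in iPSC and 6.74 and 5.02 in ESC, against 9.77 and 10.22 in fibroblasts, with log2 differences of -3.20 and -4.11 (limma adjusted p = 0.013 and 0.0015). Hoxa5 was at 6.88 and 5.45 in iPSC and 5.50 and 6.04 in ESC, with log2 differences of -3.30 and -3.70. These genes did not overlap between either group and fibroblasts. Hoxc9 was lower by the same test (-2.81 in iPSC and -3.38 in ESC), as were Hoxb4 (-2.43) and Hoxd13 (-2.42) in iPSC. With the number format as a term, Hoxd8, Hoxc9 and Hoxb4 in iPSC were no longer called (limma adjusted p = 0.054, 0.064 and 0.057). Hoxd10 (-3.50), Hoxa7 (-2.93) and Hoxc6 (-2.78) were lower in ESC. Hoxd12 was at least 4.39-fold lower in iPSC, but it entered the fit through fibroblasts alone and so had to differ. The 16 and 18 genes counted as lower include Hoxd12. In iPSC against ESC 0 Hox genes were called by limma, with 1 at an unadjusted p under 0.05, where 8.15% of all genes were called (3.68% higher and 4.47% lower). Without ESC 1, the array with macrophage and fibroblast marker signal, fewer Hox genes were called in both classes against ESC. Fewer were also called without it in ESC against fibroblasts. The same held for both classes against ESC without ESC 2. In iPSC against fibroblasts fewer were called without iPSC 2 or without the primary fibroblasts. Shares of all genes called in these fits are not given.

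The secondary course shows how the family moved over days of doxycycline, without replicates. Of 27 Hox genes detected on at least 1 of its arrays, 3 were more than 1 log2 unit higher at day 18 than at day 0 (Hoxa9, Hoxd4 and Hoxd9), 4 were more than 1 lower (Hoxa10, Hoxb2, Hoxc6 and Hoxd12) and 20 lay within 1. Hoxa9 was at 7.16, 7.63, 6.81, 7.68, 7.67, 8.74 and 8.62 at days 0, 2, 5, 8, 11, 16 and 18. It was highest on the last pair of arrays, just below the F-class range of 8.83 to 9.63.

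Hoxd4 was at 7.16, 6.86, 6.81, 8.03, 7.76, 9.45 and 8.98 on these days, also highest at day 16. Hoxd13 was at 7.81, 7.64, 6.40, 6.34, 6.33, 8.07 and 8.15, low from day 5 to day 11 and back at its starting level by day 16. Hoxd3 took a similar course, at 7.02, 5.80, 5.09, 6.19, 5.55, 8.20 and 7.90. Hoxd12 was at 7.77, 7.26, 5.74, 5.96, 4.77, 5.00 and 4.82, and did not return. Hoxd10, of the same cluster, was at 8.93, 8.22, 7.65, 8.32, 7.49, 8.51 and 8.46, so the course stayed near the fibroblast level, above every F-class clone. Hoxc6 was at 11.68, 10.61, 10.85, 10.98, 10.15, 9.95 and 9.65. Over the same arrays the mean epithelial marker level was 5.09, 6.79, 9.59, 10.62, 10.11, 9.05 and 7.28, and its part in these levels was not tested. At day 18, 12 of the 27 genes lay within the F-class range, 11 above it and 4 below it. Neither these counts nor those of the change from day 0 were made over all genes.

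**Figure D4:**
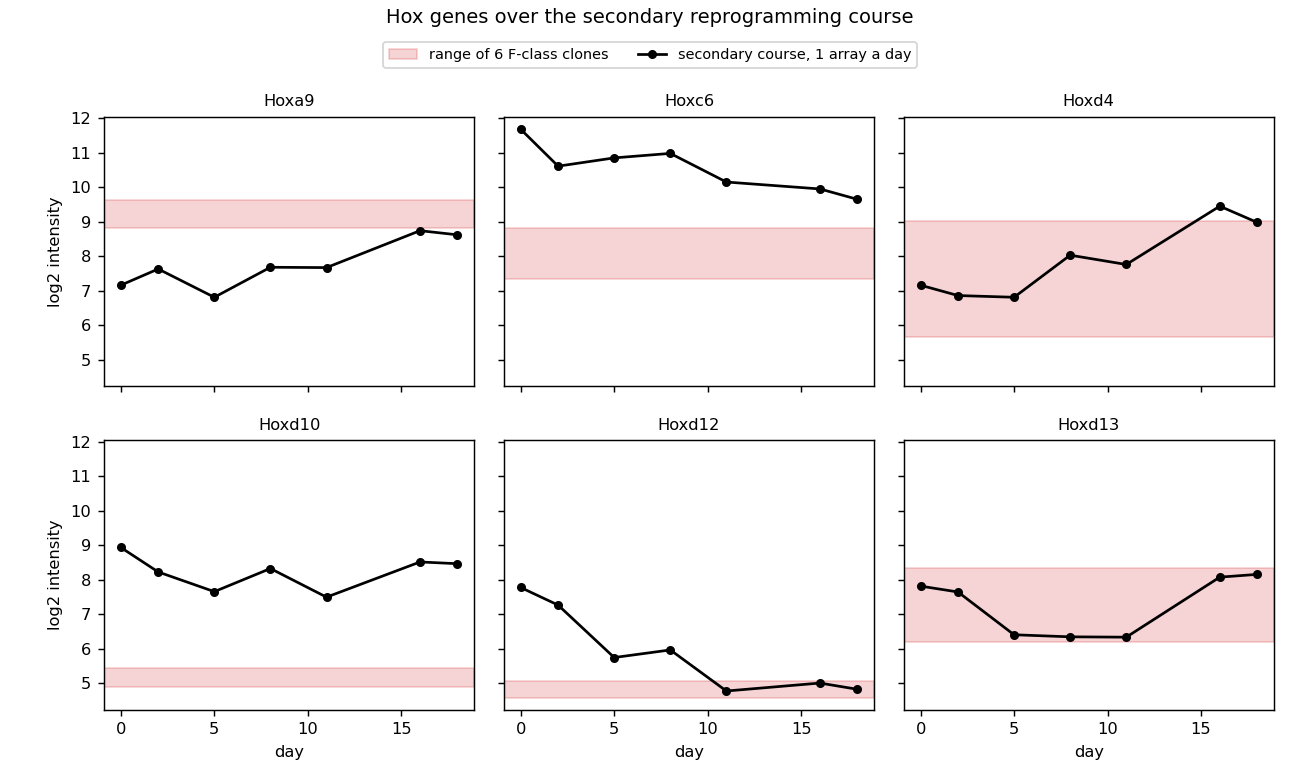
Normalized log2 intensity (y axis) of 6 Hox genes over the secondary course (x axis, day of doxycycline, 1 array a day), with the range of the 6 F-class clones at day 16 shaded. Hoxa9 and Hoxd4 end above their day 0 level, Hoxd13 dips and returns, Hoxd12 stays down, and Hoxc6 and Hoxd10 end above the F-class range.

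Clone 1 was compared between day 30 and day 16, with 1 array each. Of 21 Hox genes detected at either day, 15 lay within 1 log2 unit of day 16. The share of all genes within that bound was not computed. Hoxa2, a gene of the second branchial arch, was at 6.42 at day 30 and 5.22 at day 16, Hoxa5 at 8.25 and 7.17, and Hoxa11 at 6.33 and 4.86. These 3 Hoxa genes were the ones more than 1 higher at day 30. Hoxb2 was at 5.29 at day 30 and 7.16 at day 16, Hoxb7 at 6.39 and 8.32, and Hoxc11 at 4.62 and 5.83. Hoxa2 and Hoxa11 were undetected at day 16, and Hoxb2 and Hoxc11 at day 30, so their differences rest partly on background values. Hoxa9 was at 9.54 and 9.46 and Hoxa7 at 10.81 and 10.31, both still in or just above the F-class range.

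The HDACi course asks what happens to F-class cells when histone deacetylases are inhibited. At 24 h against 0 h, 0 of 21 Hox genes tested were called by limma and 0 had an unadjusted p under 0.05, where 2.09% of all genes were called (0.965% higher and 1.12% lower). At 48 h against 0 h, 0 were higher and 11 lower, where 28.6% of all genes were called (14.2% higher and 14.5% lower). The median log2 difference was -1.43 over the Hox genes tested and 0.02 over all genes. Lower were 5 of 7 Hoxa, 1 of 2 Hoxb, 1 of 5 Hoxc and 4 of 7 Hoxd genes.

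Hoxa9 was at 9.30 and 9.46 at 0 h, 9.06 and 9.16 at 24 h, and 5.84 and 5.53 at 48 h, with 1 of the 2 arrays at 48 h detecting it. Both 48 h arrays were far below all earlier ones, a log2 difference of -3.70 against 0 h (SE 0.25), or 13.0-fold (limma adjusted p = 0.00026). Hoxa5 was at 8.74 and 8.38, then 8.33 and 8.16, then 5.50 and 4.80, a difference of -3.41 (SE 0.24, limma adjusted p = 0.00028). Hoxa7 was at 10.72 and 11.00, then 10.67 and 10.77, then 8.12 and 7.06, a difference of -3.27 (SE 0.34, limma adjusted p = 0.00083). Hoxa10 was at 7.94 and 8.24, then 7.89 and 7.31, then 5.58 and 4.50, a difference of -3.05 (SE 0.37, limma adjusted p = 0.0013). At 48 h Hoxa5, Hoxa9, Hoxa10 and Hoxb4 were each detected on 1 of the 2 arrays, so their differences rest in part on background values. Without background correction the differences were -2.37 for Hoxa9, -1.90 for Hoxa5 and -1.67 for Hoxa10, still called. Hoxa5, Hoxa7, Hoxa9 and Hoxa10 are the genes whose upstream windows are printed above, and for each the 48 h arrays did not overlap the others.

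Outside the Hoxa cluster, Hoxb4 was at 8.88 and 8.70 at 0 h, 8.28 and 8.03 at 24 h, and 6.53 and 5.46 at 48 h (log2 difference -2.80, SE 0.32, limma adjusted p = 0.0011). Hoxd4 was at 8.55 and 8.98, then 8.52 and 8.58, then 6.42 and 6.18 (-2.46, SE 0.30, limma adjusted p = 0.0013). Again the 48 h arrays lay apart. Hoxd3 (at least 2.32-fold), Hoxa2 (at least 2.84-fold), Hoxc9 (-1.75), Hoxd9 (-1.50) and Hoxd8 (-1.43) were also lower by limma. The calls of Hoxc9 and Hoxd3 were each lost in 3 of the 4 fits that left out 1 array, and that of Hoxd9 in all 4 (log2 differences -1.52 to -1.80, -1.57 to -2.07 and -1.46 to -1.54). At 48 h against 24 h, 0 were higher and 10 lower (16.6% of all genes called, 8.41% higher and 8.21% lower), with Hoxa9 (-3.42), Hoxa7 (-3.13), Hoxa5 (-3.09), Hoxa10 (-2.56), Hoxd4 (-2.25) and Hoxb4 (-2.16) having the largest differences.

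The remaining 10 genes were not called at 48 h. Hoxa4 was at 6.30 and 6.44 at 48 h against 6.82 and 7.13 at 0 h (log2 difference -0.60, limma adjusted p = 0.076), and Hoxb7 at 6.91 and 6.96 against 7.36 and 7.28 (-0.38, p = 0.085). Hoxc10 differed by 0.03 (SE 0.29) and Hoxa13 by 0.15 (SE 0.18), with limma adjusted p of 0.96 and 0.59. Hoxc6, at 8.10 and 7.65 against 9.45 and 9.13, missed the threshold in this fit (-1.42, SE 0.50, limma adjusted p = 0.069), although its groups did not overlap. Hoxd10, at 6.46 and 6.37 against 7.87 and 7.60, did not overlap either (-1.32, limma adjusted p = 0.35). The error in this fit pools HDACi and Tet-Myc arrays. The Hoxd10 SD was 0.19, 0.04 and 0.06 at 0, 24 and 48 h, but in Tet-Myc groups 2 (dox) and 1.68 (no dox). For Hoxc6 it was 0.22, 0.14 and 0.32, against 1.22 (dox) and 0.31 (no dox). The adjusted p of both genes thus rests in part on the spread between Tet-Myc lines. With the replicate block Hoxc6 and Hoxd10 were called lower (limma adjusted p = 0.013 and 0.0021). At 48 h Hoxa5 (5.50 and 4.80) overlapped the ESC arrays (5.50 and 6.04), whereas Hoxa9 (5.84 and 5.53, against 4.68 and 4.82 in ESC), Hoxa7 (8.12 and 7.06, against 5.72 and 6.30 in ESC), Hoxd4 (6.42 and 6.18, against 5.04 and 5.19) and Hoxd9 (6.85 and 6.77, against 5.39 and 5.55) lay above both. No test was made. The untreated cells did not have the profile of the day 16 clones in every gene, since Hoxd10 was at 7.87 and 7.60 at 0 h and at 4.89 to 5.43 in the F-class clones.

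Marker levels moved over the same 48 h. The 8 epithelial markers averaged 8.02 and 7.03 at 0 h, 8.38 and 8.45 at 24 h, and 10.38 and 10.55 at 48 h, with 6 of 8 higher and 0 lower at 48 h. The 12 pluripotency markers averaged 9.79 and 8.50, then 10.24 and 10.29, then 11.47 and 11.48, with 6 higher and 0 lower. The 13 fibroblast markers averaged 6.35 and 6.63, then 6.16 and 6.26, then 5.72 and 5.59, and of the 8 tested 0 were higher and 3 lower at 48 h. Their part in the Hox differences was not tested.

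**Figure D5:**
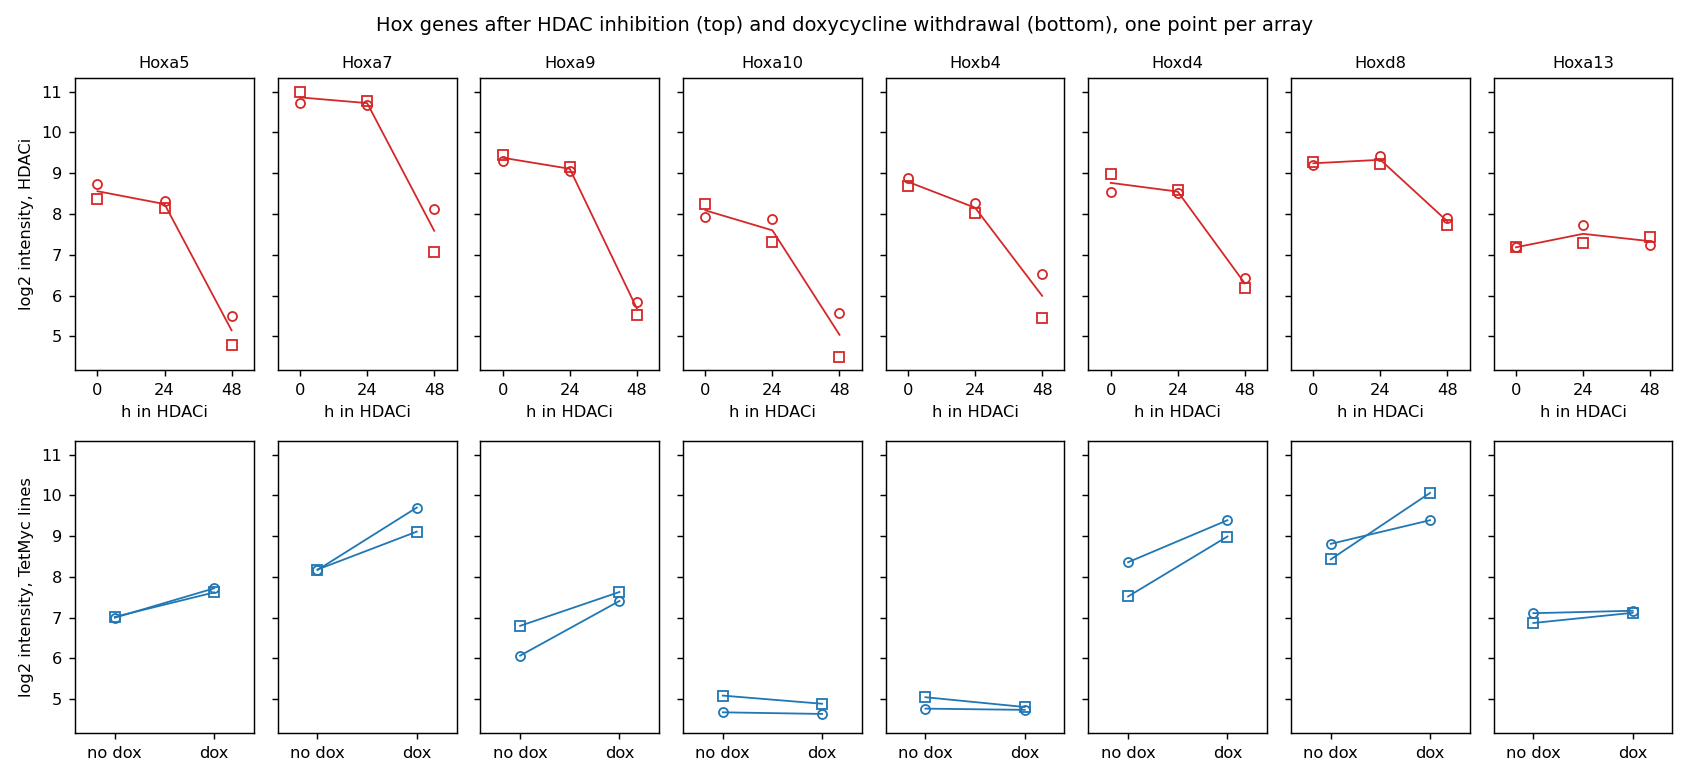
Normalized log2 intensity (y axis) of 8 Hox genes in F-class cells at 0, 24 and 48 h of HDACi (top row, circles and squares for the duplicate arrays, lines through their means) and in Tet-Myc lines 48 h without doxycycline (no dox) and with it (dox) (bottom row, 1 line per cell line). In HDACi Hoxa5, Hoxa7, Hoxa9, Hoxa10, Hoxb4 and Hoxd4 drop between 24 and 48 h while Hoxa13 does not, and Hoxd4, Hoxd8 and Hoxa9 are lower without doxycycline in both Tet-Myc lines.

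The Tet-Myc lines ask what removal of doxycycline does in cells that depend on it for Myc. They expressed a narrower set of Hox genes, with 12 and 11 detected in lines 1 and 2 without doxycycline and 12 and 14 with it, and the Hoxb cluster had 0 genes detected on every one of their arrays but 1. Without doxycycline 0 of 21 Hox genes were higher and 3 lower, where 15.3% of all genes were called (7.38% higher and 7.92% lower). Hoxd4 was at 8.36 and 7.52 in lines 1 and 2 without doxycycline and at 9.39 and 8.99 with it (log2 difference -1.25, SE 0.30, limma adjusted p = 0.032). Hoxd8 was at 8.81 and 8.43 without and 9.39 and 10.06 with doxycycline (-1.10, SE 0.24, p = 0.026), and Hoxa9 at 6.07 and 6.80 without and 7.41 and 7.63 with it (-1.08, SE 0.25, p = 0.029). All 3 were lower in both lines without overlap, but none of the calls held in every fit that left out 1 array. Hoxa9 lost its call without line 1 in either state or line 2 with doxycycline, Hoxd4 without line 2 without doxycycline or line 1 with it, and Hoxd8 without line 2 in either state.

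The same lines were measured in both states, and with the line as a replicate block 9 Hox genes were lower, where 25.1% of all genes were called. That fit also paired the HDACi duplicates by number. Its error and p-values therefore rest partly on a pairing that no label gives. Added were Hoxd10 (-1.84, limma adjusted p = 0.0029), Hoxc6 (-1.37, p = 0.024), Hoxd9 (-1.30, p = 0.0044), Hoxa7 (-1.23, p = 0.048), Hoxc9 (at least 1.96-fold, undetected without doxycycline, p = 0.015) and Hoxa5 (-0.67, p = 0.035). Hoxd10 was apart in the lines, at 4.94 and 7.32 without and 6.55 and 9.38 with doxycycline in lines 1 and 2. The pluripotency markers averaged 10.17 and 10.79 without and 9.02 and 8.84 with doxycycline, with 4 of 12 higher, and their part was not tested. Of the 9 genes lower with the block, 7 were also among the 11 lower after 48 h of HDACi (Hoxa5, Hoxa7, Hoxa9, Hoxc9, Hoxd4, Hoxd8 and Hoxd9), and of the 3 lower without it, all 3. Over all genes, 286 of the 1240 lower with the block (23.1%) and 26.4% of the 804 lower without it were among the 1468 lower after HDACi. These comparisons share no arrays but were fitted together, and no test of the overlap was made.

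The genes that work with or on the Hox clusters are read against the shares of all genes called, which were 24.7% between the classes, 28.6% after 48 h of HDACi and 15.3% without doxycycline. Of the 7 Pbx, Meis and Pknox cofactors tested, Meis2 (0.92, limma adjusted p = 0.018) and Meis3 (0.71, p = 0.00049) were higher in F-class clones relative to C-class clones and 0 were lower, with a median log2 difference of 0.29. After 48 h of HDACi, Meis2 (-2.41), Meis3 (at least 2.50-fold) and Pbx3 (-0.91) were lower and 0 were higher. In Tet-Myc lines without doxycycline Meis1 was higher (1.78). Of 12 activators tested, including trithorax subunits, retinoic acid receptors and Cdx factors, Men1 was higher (0.41) and Kdm6a, a demethylase of the Polycomb mark, was lower (-0.39) in F-class clones relative to C-class clones. In the HDACi and Tet-Myc groups 10 were tested. Cdx2, a direct activator of central Hox genes in the embryo, was higher after 48 h of HDACi (at least 3.91-fold) and without doxycycline (at least 3.12-fold), being undetected at 0 h and with doxycycline, and 4 activators were higher and 0 lower after HDACi.

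Of 16 Polycomb genes tested, 3 were higher and 3 lower in F-class clones relative to C-class clones, among them Cbx2 (1.15), Cbx7 (-0.91) and Phc1 (-0.73). After 48 h of HDACi 5 were higher and 2 lower, among them Cbx7 (1.52), Phf19 (at least 1.84-fold) and Mtf2 (1.15), and Bmi1 (-1.04) and Ezh2 (-0.58), the enzyme that writes the repressive mark. Of 6 ParaHox genes and cluster neighbours tested between the classes, Evx1, which lies beside Hoxa13, was lower in F-class clones (-1.38). After 48 h of HDACi 1 of 8 was higher, Pdx1, which was detected at 48 h alone and entered the fit through that group, and 2 were lower, Skap2 and Hibadh, which lie beyond the ends of the Hoxa cluster.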

How the data were processed

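RNA was measured on 51 Illumina MouseRef-8 v2 arrays. The intensity values and detection p-values that the authors deposited are not normalized, with medians of 108.7 to 212.11 per array. The authors also deposited intensity values scaled to a median of 143.14 on every array, which served as an alternative. Extraction used QIAGEN RNeasy kits, per the labels' protocols, and the labels name no scanner or software.

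Background correction, quantile normalization and log2 transformation used the neqc function (offset 16) from limma version 3.58.1, run under R 4.3.3. Platform annotation named 23978 of 25697 probes. Hox genes had 50 probes, with 1 probe for 29 genes and several for 9, and the symbols of all 38 matched RefSeq. A gene entered a fit if its detection p was under 0.05 on 2 or more arrays there, which held for 11046 in the reference groups and 10154 in the HDACi and Tet-Myc groups, with lmFit, contrasts and eBayes, two-sided and adjusted by Benjamini-Hochberg over all genes of the fit. Samples were grouped by the labels. The analysis was tested on simulated data. The number of arrays limits the precision, and 2 arrays a group give wide errors.

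Values per array are given for Hox genes called in the class comparison and for up to 6 called genes with the largest difference in each other comparison, and genes beyond this rule were chosen after their values were seen. The Hox members, gene lists and tests were chosen with earlier results of these data known. Same-numbered arrays deviated together in the Tet-Myc lines, which are the same lines in both states (correlation of deviations 0.503 over 10154 genes), but the HDACi duplicates (0.259, 0.091 and 0.078) were not taken as pairs, since no label says what their numbers share. Alternatives covered normalization, filter, probe choice, samples in the fit, the number format of the deposited columns and the replicate block. The block paired the Tet-Myc arrays by line and, in the same fit, the HDACi arrays by number. Each array of the fits was also left out in turn, except those of the C-class clones, which were always kept.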

Additional observations from a re-analysis of the deposited data

Results flagged for a closer look

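Among the 28 Hox genes checked for an array far from the others in the 6 F-class clones, Hoxb1 stood out, with clone 13 at 4.94 and the next clone at 4.66 on the log2 scale. The gap was 0.708 of the whole range, above Dixon's critical value for 6 samples. Hoxb1 was undetected in all 6 clones, so these are background values, and chance flags about 1 in 20 such checks.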

How the results depend on the processing

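Of 138 single-gene results, each recomputed under every alternative that applied, 1349 of 1565 recomputed values kept their direction and their side of the threshold, 215 were no longer called and 1 reversed. The reversed one was Hoxc13 in C-class clones against iPSC, at -0.04 with the number format of the deposited columns as a term. That term, which separates the iPSC arrays from the clones and part of the ESC and fibroblast arrays, left 2 called Hox genes in C-class clones against ESC, 4 (F-class) and 0 (C-class) against iPSC, and 11 in iPSC against fibroblasts. The meaning of the format is not known, and the cause was not tested. In the Tet-Myc lines the count was 5 with quantile normalization, 5 with the authors' scaled values, 6 with the stricter filter and 9 with the replicate block. The numbers of the HDACi arrays were not taken as pairs in the main fit, but they were with the replicate block. That fit gave 0 called Hox genes at 24 h, 13 at 48 h against 0 h and 12 at 48 h against 24 h. These counts were within 1.5 times those without the block. Leaving out 1 array at a time gave 8 to 10 called Hox genes in F-class against C-class clones, 6 to 12 in F-class and 11 to 13 in C-class clones against fibroblasts, 7 to 14 and 2 to 4 against ESC, 7 to 15 and 2 to 6 against iPSC, 9 to 14 in iPSC and 13 to 17 in ESC against fibroblasts, 0 to 1 in iPSC against ESC, 2 to 4 in the Tet-Myc lines, and 0 to 0, 8 to 9 and 7 to 8 in HDACi at 24 h against 0 h, 48 h against 0 h and 48 h against 24 h. In a fit that leaves 1 array in a group, that array is assumed to vary like the other groups. No C-class array was left out in any fit, so the dependence on single C-class clones is not known. Shares of all genes called are given for no alternative but the replicate block in the Tet-Myc lines. From the Hox counts given here alone, a change in Hox calls therefore cannot be told apart from a change over all genes. Hoxa13 lost its calls against ESC in C-class clones and in all comparisons with iPSC when its probes were averaged. Signal over background limits the genes undetected in 1 group, which were 5 of 12 called Hox genes in F-class clones against ESC and 6 of 15 against iPSC. Their fold is bounded only where the other group lies above the floor.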
